A study of Mus with 4 samples.

Results

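Gata4, Gata6, Gata2, Maf, Tfec, Meis2 and Tal1 encode DNA-binding proteins that shape the identity of liver endothelium. These 7 genes were taken by their Ensembl identifiers from the 54532 gene rows of the deposited count table, and all 7 were found. Their symbols come with that list of identifiers. Both groups were sinusoidal endothelial cells of the liver (LSECs), which form the porous wall of its smallest blood channels, from mice given carbon tetrachloride (CCl4), a toxin that injures hepatocytes and leads to fibrosis. The P1KO group consisted of 2 libraries, KO1 and KO3, from Pofut1 knockout mice, in which the series title places the loss in the endothelium. The CTL group consisted of 2 libraries, CTL1 and CTL2, labelled as control only. The Cre driver, strain, sex and age of the mice, the dose and duration of CCl4, the method of cell isolation and any pooling of animals are stated neither in the labels nor in the series design.

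LSECs differ from the continuous endothelium of other organs in their open pores, their scavenger receptors and their lack of a firm basement membrane, and they lose these traits in fibrosis, a process called capillarisation. In mice, the GATA factor encoded by Gata4 is known to be needed in liver endothelium for the sinusoidal programme and to hold back the continuous one. Maf and Meis2 are also enriched in sinusoidal over continuous endothelium, and Tfec belongs to the same set of sinusoidal factors. POFUT1 adds O-linked fucose to the EGF-like repeats of Notch receptors, which is needed for Notch signalling. The series asked how endothelial POFUT1 acts on LSECs and on hepatic stellate cells, the main matrix-producing cells of the injured liver.

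The libraries held 17918834 reads in KO1, 17724765 in KO3, 17464769 in CTL1 and 17801587 in CTL2. The biological coefficient of variation, the spread beyond counting noise, was 12.1% between the P1KO libraries and 3.23% between the CTL libraries. The table was not paired with other gene symbols, so neither the loss of Pofut1 nor the markers of sinusoidal, hepatocyte, Kupffer, stellate, blood or heart cells are analysed here. The labels name liver and LSECs, but their extraction text speaks of heart ventricles, and Gata4 and Gata6 are active in heart muscle too. The tissue could not be checked from these 7 genes. In bulk RNA, fewer cells of a type and less RNA per cell cannot be told apart.

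In the fit to all 4 libraries, Maf and Tfec transcripts were called higher in the P1KO libraries than in the CTL libraries. The GATA factors, Meis2 and Tal1 did not pass the test. Neither call held once either CTL library was left out. Maf was 1.27-fold and Tfec 1.39-fold higher. For both, the libraries of the 2 genotypes did not overlap, which also held for 62.6% of all tested genes. Of the 7 factors, 2 were called, both higher in P1KO (quasi-likelihood F-test of edgeR over 15510 genes, called at a Benjamini-Hochberg adjusted p below 0.05). That is 28.6% of the factors, against 19.5% of all tested genes and 28.7% of the 7032 tested genes with at least the mean CPM of Gata6, the lowest of the 7. CPM are reads scaled to a common library size, without regard to transcript length. Calls of a rise alone made up 9.68% of all tested genes, and their share among the 7032 genes was not computed. The share of factors called was thus close to that of genes with CPM in the same range. The median log2 change was 0.09 over the 7 factors, 0.044 over those 7032 genes and -0.0077 over all tested genes.

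**Figure D1:**
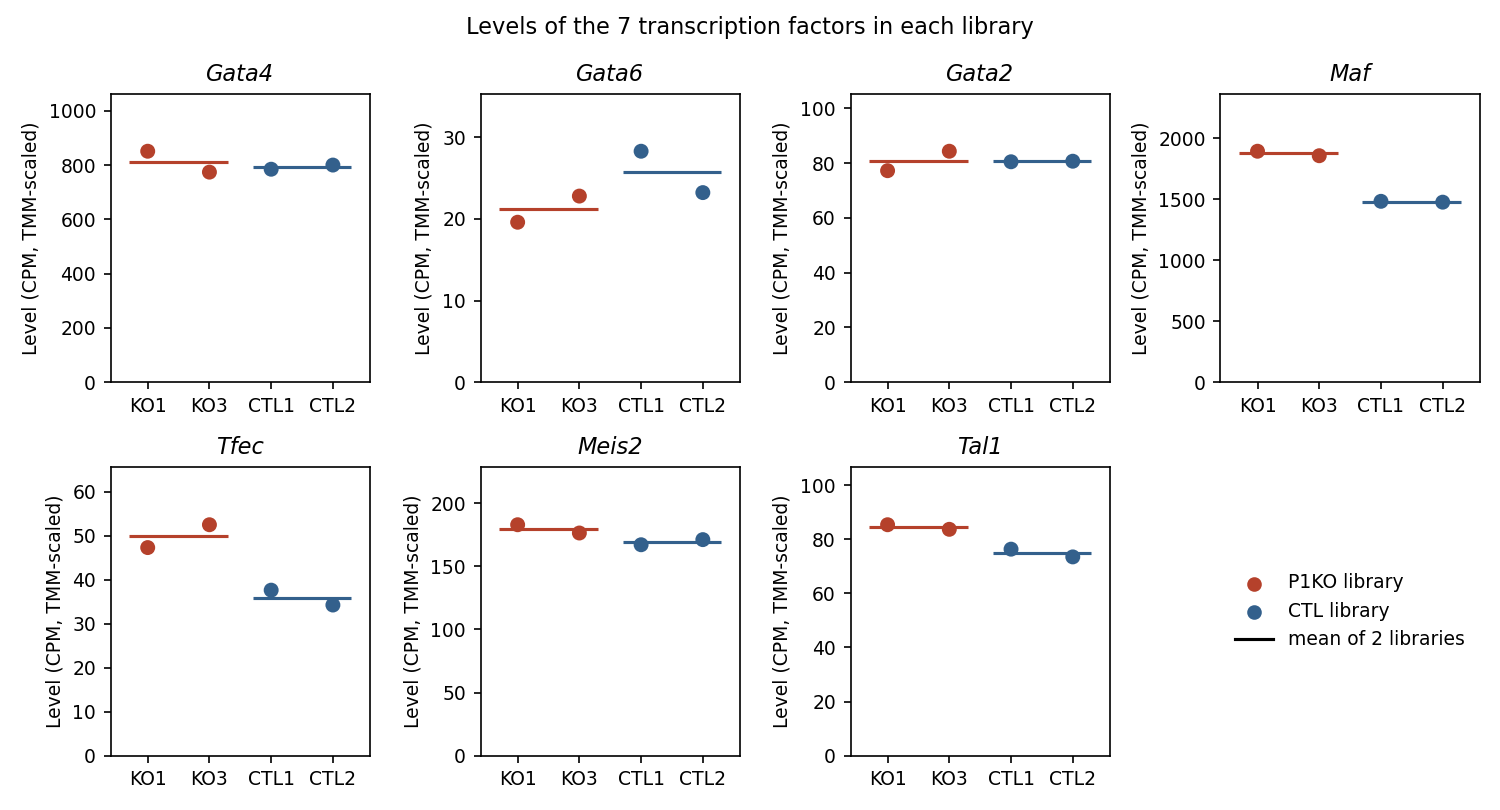
Level of each factor in CPM (TMM-scaled, linear axis from 0) in KO1, KO3, CTL1 and CTL2; points are libraries and lines are the means of the 2 libraries of a genotype. The P1KO points lie above the CTL points for Maf, Tfec, Meis2 and Tal1, lie below them for Gata6, and overlap them for Gata4 and Gata2.

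Maf (ENSMUSG00000055435) encodes a large Maf factor of the basic leucine zipper class, which is also made by macrophages. The gene lies at chr8:115703253-115706894 of GRCm38.p6 in RefSeq. It had 33293 reads in KO1 and 33018 in KO3, against 26012 in CTL1 and 26336 in CTL2. Both P1KO libraries were above both CTL libraries, by a margin far wider than the gap within either pair. Scaled by TMM, the level of Maf was 1892 and 1855 CPM in KO1 and KO3, and 1481 and 1474 CPM in CTL1 and CTL2. The group means were 1873 ± 26.0 CPM in P1KO and 1478 ± 4.92 CPM in CTL (SD, n = 2 each). The log2 fold change was 0.34 ± 0.04 (SE), with a 95% interval of 0.25 to 0.44 and an edgeR adjusted p of 0.00185. A rise of this size was not rare, since 2036 tested genes, or 13.1%, rose by at least as much in P1KO.

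Tfec (ENSMUSG00000029553) encodes a helix-loop-helix leucine zipper factor of the MiT/TFE family, whose mRNA is known from macrophages as well as from LSECs. Its locus is chr6:16830927-16898464. The gene had 833 reads in KO1 and 935 in KO3, against 661 in CTL1 and 612 in CTL2. All P1KO values were above all CTL values here too, although the libraries within a genotype stood further apart than for Maf. Levels were 47.3 and 52.5 CPM in KO1 and KO3, and 37.6 and 34.3 CPM in CTL1 and CTL2. The mean level of Tfec was 49.9 ± 3.67 CPM in P1KO and 36.0 ± 2.39 CPM in CTL (SD, n = 2 each). The log2 fold change was 0.47 ± 0.09 (SE), with a 95% interval of 0.27 to 0.68 and an edgeR adjusted p of 0.00949. It was the furthest change among the 7 factors, and 8.34% of all tested genes rose by at least as much.

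Both calls were lost when either CTL library was left out. Without CTL1, the log2 change was 0.34 for Maf and 0.54 for Tfec, with edgeR adjusted p-values of 0.15 and 0.123. Without CTL2 the changes were 0.33 and 0.40, with adjusted p-values of 0.157 and 0.181. In these edgeR fits, 0 of the 7 factors were called, against 0.832% of all tested genes without CTL1 and 0.774% without CTL2. Factors at an unadjusted p below 0.05 are not counted for these fits, since the share of all tested genes at that cut was not computed. With both CTL libraries summed into 1, edgeR called 0 of the 7, against 0.98% of all genes, and Maf and Tfec were the 2 at an unadjusted p below 0.05. Over 13 alternatives the log2 change ran from 0.33 to 0.36 for Maf and from 0.40 to 0.55 for Tfec. All of them reuse the same 4 libraries, and the test against a minimum change leaves the log2 change as it was. These ranges are therefore no independent support. In an edgeR test against a minimum change of 1.5-fold, 0 of the 7 factors were called, against 1.74% of all genes. Whether the Maf and Tfec reads came in part from macrophages was not tested.

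**Figure D2:**
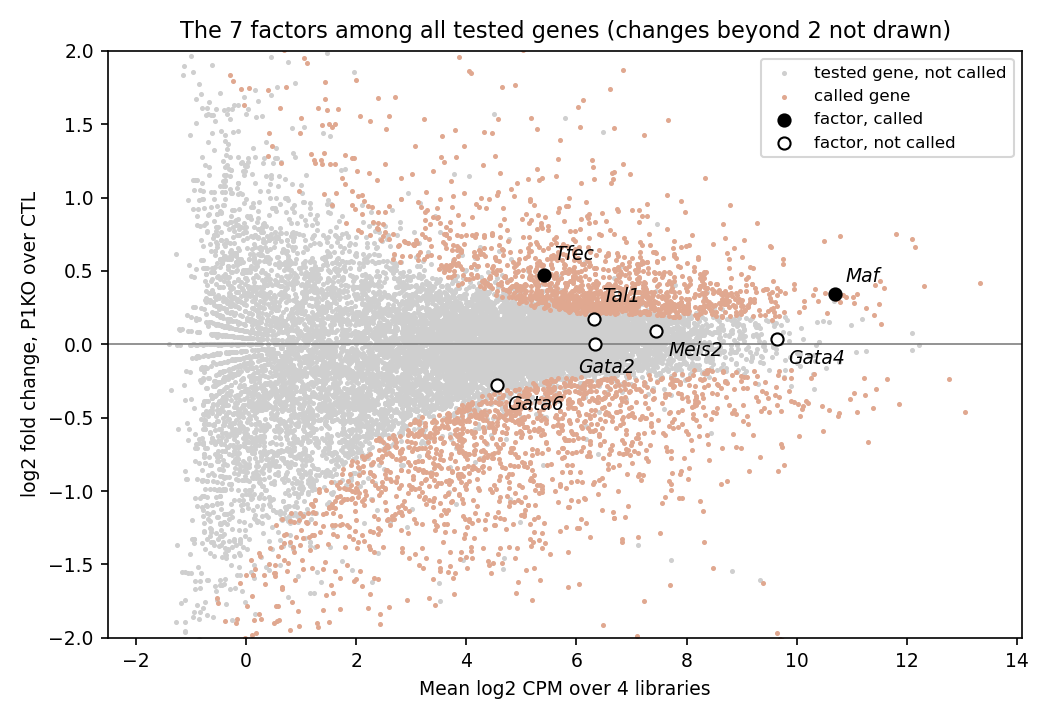
Log2 fold change, P1KO over CTL, against mean log2 CPM over the 4 libraries for the tested genes; filled black points are the 2 called factors, Maf and Tfec, and open points are the 5 others. Of the tested genes, 160 with a change beyond 2 are not drawn.

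The GATA factors showed no common direction. Gata4 (ENSMUSG00000021944), the best studied regulator of the sinusoidal programme in mice, lies at chr14:63198914-63271712 and no other gene in the RefSeq table overlaps it. It had 14983 reads in KO1 and 13783 in KO3, against 13784 in CTL1 and 14295 in CTL2. KO1 was the highest and KO3 the lowest of the 4 libraries once scaled, so that the genotypes overlapped. Levels were 851 and 774 CPM in KO1 and KO3, and 785 and 800.3 CPM in CTL1 and CTL2. The mean was 813 ± 54.5 CPM in P1KO and 793 ± 10.8 CPM in CTL (SD, n = 2 each). The log2 fold change of Gata4 was 0.04 ± 0.06 (SE), with an edgeR adjusted p of 0.707. Its 95% interval ran from -0.10 to 0.17, which is 0.934-fold to 1.13-fold, so larger changes lay outside it.

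Gata4 also showed how far 1 knockout library could carry the result. Without KO3 it was called higher, with a log2 change of 0.10 and an edgeR adjusted p of 0.000155. Without KO1 the log2 change was -0.03, with an adjusted p of 0.323. With 1 P1KO library left, the spread came from the close CTL pair alone. For these fits the share of calls among genes with CPM in the same range was not computed. In the fit to all 4 libraries that share was 28.7%, against 19.5% of all tested genes. In the fit without KO3, 6 of the 7 factors were called, all but Gata2, against 33.6% of all tested genes. In the fit without KO1, Maf, Tfec and Tal1 were called, against 34.8% of all tested genes.

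Gata6 (ENSMUSG00000005836), a paralog of Gata4 with roles in endoderm and heart, was the only factor with a negative log2 change in the fit to all 4 libraries, although Gata4 and Gata2 turned negative under some alternatives, library totals without TMM among them for Gata2. Its locus, chr18:11052510-11085636, overlaps the antisense gene Gata6os by 58 bp in the RefSeq table. The count was 345 in KO1 and 406 in KO3, against 497 in CTL1 and 415 in CTL2. The P1KO libraries were both below the CTL libraries, but KO3 and CTL2 were nearly level. Scaled levels of 19.6 and 22.8 CPM in KO1 and KO3 stood against 28.3 and 23.2 CPM in CTL1 and CTL2. The log2 fold change was -0.28 ± 0.13 (SE), with a 95% interval of -0.58 to 0.02 and an edgeR adjusted p of 0.175. Leaving out CTL1 brought it to -0.14 and leaving out CTL2 to -0.42. Without KO3 Gata6 was called, at -0.39, in the fit whose spread came from the CTL pair alone. Without KO1 it was at -0.18 and not called. Gata6 had the fewest reads of the 7, and the counting error alone was 5.38% at its lowest count.

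Gata2 (ENSMUSG00000015053), which serves blood stem cells and many endothelia, was nearly equal in both genotypes. It lies at chr6:88193891-88207032, and 4394 bp of its span are shared with the lncRNA gene Gm38708. Reads numbered 1360 in KO1 and 1502 in KO3, against 1414 in CTL1 and 1442 in CTL2. The CTL values fell between the P1KO values, at 80.5 and 80.7 CPM, with 77.3 CPM in KO1 and 84.4 CPM in KO3. The log2 fold change was 0.0035 ± 0.07 (SE), with an edgeR adjusted p of 0.978 and a 95% interval of -0.15 to 0.16. That interval spans 0.901-fold to 1.12-fold.

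Tal1 (ENSMUSG00000028717) encodes a helix-loop-helix factor that forms complexes with GATA factors and is needed for the first blood cells and for vessel formation. The gene lies at chr4:115056426-115071755, of which 1689 bp are shared with the lncRNA gene Gm33786. It had 1502 reads in KO1 and 1489 in KO3, against 1340 in CTL1 and 1312 in CTL2. Both P1KO libraries lay above both CTL libraries, at 85.3 and 83.6 CPM against 76.3 and 73.5 CPM. Means of 84.5 ± 1.20 CPM in P1KO and 74.9 ± 2.02 CPM in CTL gave a log2 fold change of 0.17 ± 0.06 (SD and SE, n = 2 each). It did not pass, with an edgeR adjusted p of 0.0827, although its unadjusted p was 0.0209 in the same test. The 95% interval of 0.03 to 0.31 comes from the unadjusted fit. DESeq2 on the 4 libraries gave an adjusted p of 0.264. Tal1 was called without KO1 and without KO3, where the spread came from the CTL pair alone, but not without either CTL library. Its log2 change was 0.16 without KO1, 0.19 without KO3, 0.20 without CTL1 and 0.14 without CTL2. Tal1 is active in red cell and platelet precursors too, and their part in its reads was not tested.

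Meis2 (ENSMUSG00000027210), a homeodomain factor of the TALE class, is known from heart, limb and brain development and from LSECs. The span chr2:115861264-116067537 shares 313 bp with the lncRNA gene G630016G05Rik. Its reads were 3221 in KO1 and 3141 in KO3, against 2935 in CTL1 and 3058 in CTL2. The groups did not overlap, at 183 and 176 CPM in P1KO and 167 and 171 CPM in CTL, but the gap between KO3 and CTL2 was smaller than that within the P1KO pair. The log2 fold change was 0.09 ± 0.06 (SE), with a 95% interval of -0.04 to 0.22 and an edgeR adjusted p of 0.32. Without KO3 Meis2 was called, at 0.11, in the fit whose spread came from the CTL pair alone. Without KO1 it was at 0.06 and not called.

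**Figure D3:**
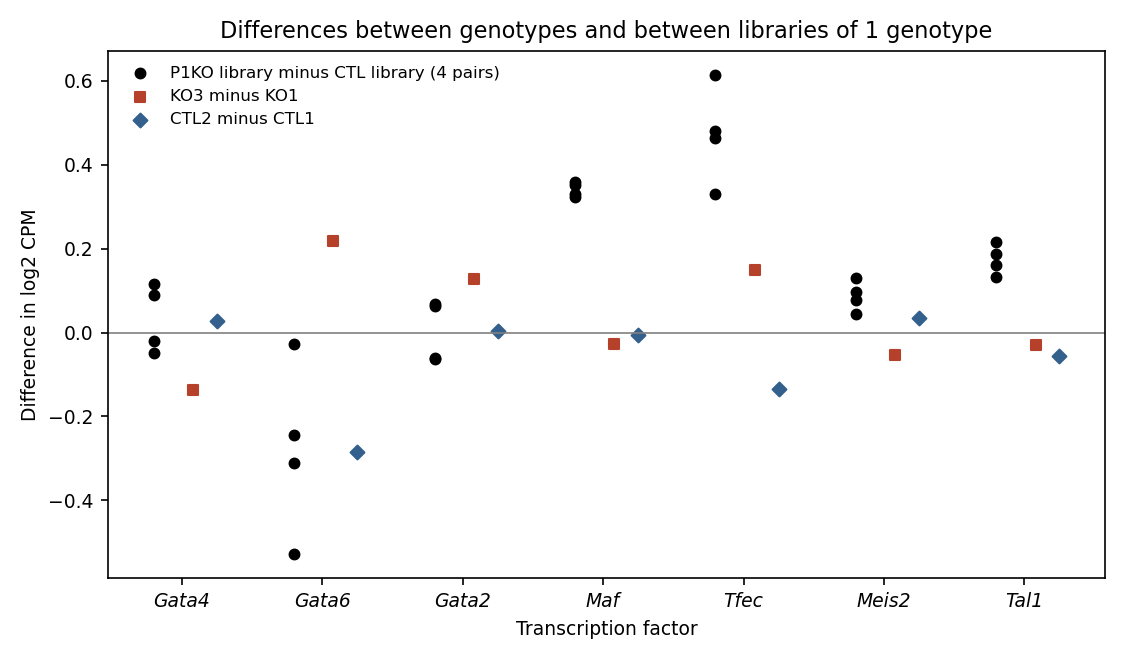
Difference in log2 CPM (prior count of 2) for each factor: black points are the 4 pairs of 1 P1KO and 1 CTL library, squares are KO3 minus KO1 and diamonds are CTL2 minus CTL1. For Maf the 4 black points lie between 0.32 and 0.36, far from the pairs within a genotype, whereas those of Gata4 and Gata2 lie on both sides of 0.

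Set against the gaps within a genotype, Maf stood out most clearly. Its 4 differences between a P1KO and a CTL library ran from 0.32 to 0.36 in log2 CPM, against a gap of 0.03 between the P1KO libraries and of 0.0068 between the CTL libraries. For Tfec the differences ran from 0.33 to 0.61, with gaps of 0.15 and 0.14. Tal1 ranged from 0.13 to 0.22, with gaps of 0.03 in P1KO and 0.06 in CTL. Meis2 ranged from 0.04 to 0.13, against gaps of 0.05 and 0.03. Gata6 spanned -0.53 to -0.03, and its gaps of 0.22 and 0.28 were of the same order. In all, 4 factors were higher in P1KO in all 4 pairs, Gata6 was lower in all 4, and Gata4 and Gata2 were higher in 2 of 4. The groups did not overlap for 5 of the 7, or 71.4%, against 62.6% of all tested genes.

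The libraries of a genotype differed by more than counting error for 5 factors in P1KO and for 1 in CTL (95% exact binomial intervals of the level ratio, covering counting error only). The share of all tested genes that did so was not computed, so the counts are not particular to the factors. Over all tested genes the spread was also wider in P1KO, at 12.1% against 3.23% in CTL. Passing depends on read depth too, since Meis2 did not pass at a KO3 over KO1 ratio of 0.964. KO3 was at 0.91 times the level of KO1 for Gata4, with an interval of 0.889 to 0.931. For Maf the same ratio was 0.981, with an interval of 0.966 to 0.996. KO3 was higher than KO1 for Gata6, at 1.16 times, for Gata2, at 1.09 times, and for Tfec, at 1.11 times. Those intervals excluded equality only narrowly, from 1.01 to 1.35 for Gata6, from 1.01 to 1.18 for Gata2 and from 1.01 to 1.22 for Tfec. In CTL it was Gata6 that differed, at 0.821 times in CTL2 relative to CTL1, with an interval of 0.719 to 0.937. The P1KO pair thus varied in both directions across the factors.

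**Figure D4:**
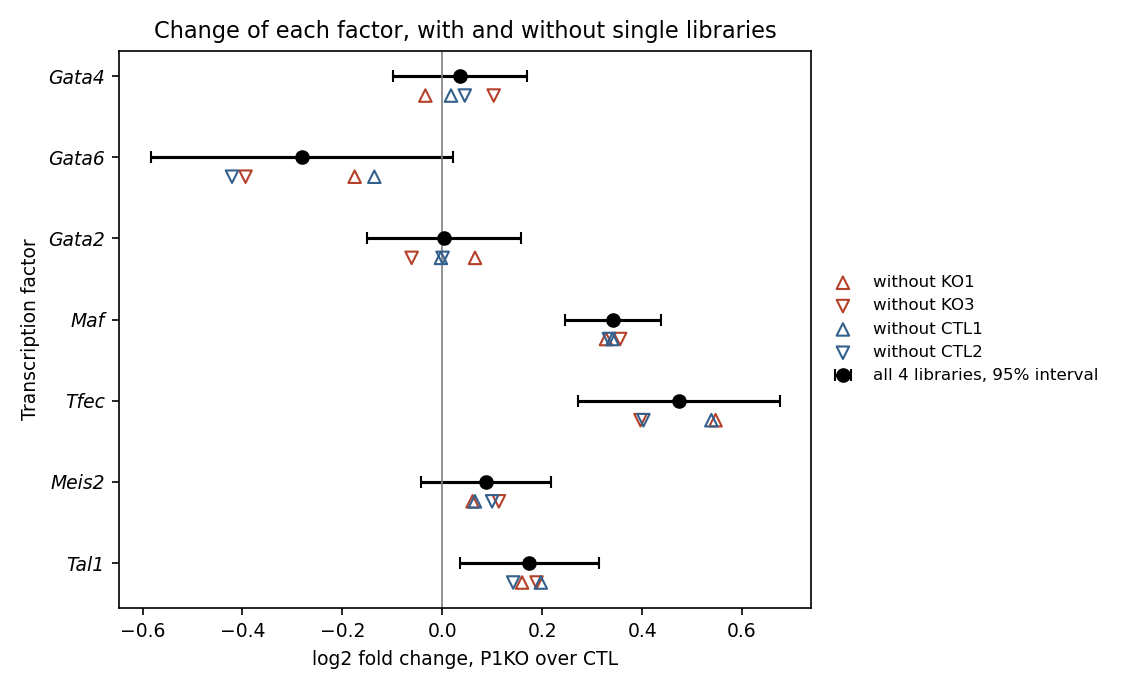
Log2 fold change of each factor, P1KO over CTL, from all 4 libraries (black points, with 95% intervals from edgeR's quasi-likelihood fit) and with 1 library left out (triangles). Maf stays between 0.33 and 0.36 and Tfec between 0.40 and 0.55, while Gata4 and Gata2 fall on both sides of 0.

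Ratios of reads between factors within a library do not depend on scaling, so they were compared between genotypes as well. They are ratios of read counts, not of levels per transcript length, so only their shift between genotypes is compared. Gata4 reads over Maf reads came to 0.45 and 0.417 in KO1 and KO3, against 0.53 and 0.543 in CTL1 and CTL2. Gata6 reads over Tfec reads came to 0.414 and 0.434 in KO1 and KO3, against 0.752 and 0.678 in CTL1 and CTL2. That was the widest shift, -0.75 on the log2 scale, and it pairs the factors with the most negative and the most positive log2 change. Gata4 over Gata2 overlapped between genotypes, at 11.0 and 9.18 in P1KO and 9.75 and 9.91 in CTL. In all, 21 ratios were computed, which reuse the same 7 genes. With 2 libraries against 2, the exact permutation test cannot go below a two-sided p of 0.333, so no ratio could pass. The genotypes were apart for 17 of the 21 ratios, Gata4 over Maf and Gata6 over Tfec among them. Each of the 17 had that permutation p, with 0.412 after Benjamini-Hochberg adjustment over the 21. Ratios of other genes were not computed.

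Shares of reads were compared in the same way. Maf supplied 59.9% and 60.8% of the reads of the 7 factors in KO1 and KO3, against 55.8% and 55.5% in CTL1 and CTL2. Gata4 supplied 27.0% and 25.4% in KO1 and KO3, against 29.6% and 30.1% in CTL1 and CTL2. These shares add up to a fixed whole, so a higher share of Maf lowers the others, and the log2 change of Gata4 itself was 0.04. All 7 together took 0.31% of the reads of KO1 and 0.306% of KO3, against 0.267% in each CTL library. Maf supplied most of those reads in every library, so this total mainly follows Maf. The 3 GATA factors took 0.0931% and 0.0885% in KO1 and KO3, against 0.0899% and 0.0907% in CTL1 and CTL2, which overlap. These shares count reads without regard to transcript length.

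Values over the 4 libraries were compared by the Euclidean distance between log2 CPM values centred on the CTL mean. This distance is not scaled, so factors that change little lie close together. Gata4 and Meis2 were nearest to each other, at a distance of 0.10. Gata4 was higher in P1KO in 2 of 4 pairs and Meis2 in 4 of 4, so nearness need not mean a shared direction. Tal1 was nearest to Meis2, at 0.14, and Maf was nearest to Tal1, at 0.24. Tfec lay nearest to Maf, at 0.24, and Gata2 nearest to Meis2, at 0.18. Gata6 was the most isolated, at 0.45 from Gata2. With 4 libraries these distances are a description only.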

How the data were processed

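The authors deposited 1 table of raw read counts per gene, with 4 columns and Ensembl identifiers, and 0 columns were left out. The submitters' processing notes name mm10 as the build and list featureCounts 1.5.0-p3, HISAT2 2.0.5, fastp and CASAVA. Per the labels' protocols, TRIzol served for extraction and a NEBNext Ultra RNA kit for library preparation. That kit does not mark strand, so reads of a gene and of a gene overlapping it on the other strand cannot be told apart. The annotation release is not given in the sources used here. Of the columns, CTL1, CTL2 and KO1 each carry the group and number of a title, whereas no title has the number 3, so KO3 was placed in P1KO by its letters. Whether the libraries of a genotype stem from different mice is not stated, so the p-values reflect only how these libraries vary, and this variation may be technical.

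Counts were analysed with edgeR 4.0.16 in R 4.3.3. The steps were filterByExpr, TMM scaling and the quasi-likelihood F-test of P1KO against CTL over 4 libraries with no covariate. All 7 factors passed the filter, among 15510 genes. The standard error is the log2 change divided by the square root of F. Alternatives used limma 3.58.1, DESeq2 1.42.0, other scalings and filters, a minimum change, each library left out and the CTL libraries summed. Coordinates are RefSeq gene spans on GRCm38.p6 (mm10 is the UCSC name of GRCm38), found by symbol for 7 of 7 factors. The table (49997 genes) holds 0 Ensembl identifiers, so the lists of related factors and of cell type markers could not be used. It holds no transcript lengths, so levels per length were not computed, and CPM and read ratios of different genes reflect reads only. All 7 factors are named, and the likeness measure was set with them. The factors and lists were chosen with earlier results of these data known. The ratios and shares singled out were chosen after their values were seen.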

Additional observations from a re-analysis of the deposited data

How the results depend on the processing

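Maf and Tfec were called, and no other factor was, with DESeq2 size factors, library totals, DESeq2, limma-voom, limma-voom with a spread per group, a filter of 5 CPM and no filter on low counts. Of 15510 tested genes, DESeq2 size factors called 3053, library totals 2985 and DESeq2 2255. Limma-voom called 3110 of them, and 2953 with a spread per group. The filter of 5 CPM gave 2883 called genes. Many genes besides the 2 factors thus passed under each of these settings. Without a filter, edgeR called 1633 genes over the whole table, 810 higher and 823 lower. A test for changes beyond 1.5-fold called 270 genes (118 higher, 152 lower) and 0 factors, so 0 higher. With the CTL libraries summed, 152 genes were called (70 higher, 82 lower) and 0 factors, so 0 higher. Leaving out 1 library gave 120 to 5391 called genes, 54 to 2675 higher and 66 to 2716 lower, and 0 to 6 called factors, 0 to 5 higher and 0 to 1 lower. In those fits the single library left in a genotype was assumed to spread like the other genotype. Gata2 changed sign with library totals (-0.012), a filter of 5 CPM (-0.0087) and the CTL libraries summed (-0.0015), and with 1 library left out ranged from -0.061 (without KO3) to 0.066 (without KO1). Gata4 ranged from -0.034 (without KO1) to 0.10 in those fits. The others kept their direction in all 13 alternatives. Where a call was lost without a CTL library, the spread came from the P1KO pair. Depth limits Gata6 most, with a counting error of 5.38% at its lowest count. No paired analysis was possible because the columns of both genotypes share only 1 replicate number.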
